A study of Mus musculus with 3 samples.

Results

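A group of 7 microRNA hairpins known from stromal and vascular cells, Mir143, Mir145a, Mir199a-1, Mir199a-2, Mir199b, Mir214 and Mir126a, were followed through 3 small RNA libraries of fully grown mouse oocytes. They were chosen by GENCODE M21 symbol as a gauge of somatic RNA of the ovary, and all 7 had reads. Of all 2201 annotated microRNA hairpins, 968 had at least 1 read in the 3 libraries together. Total RNA of the oocytes was cut from a polyacrylamide gel at 19-24 nt, at 24-30 nt and at 19-30 nt, with 1 library for each window. All 3 libraries came from mice given PMSG, a gonadotropin used to stimulate the ovary, at 5 IU and 48 hours before sacrifice. Their strain, genotype, age and number, and the number of oocytes, are not given in the sources used here. With a single library per window, differences lack a replicate check, and each interval is a 95% interval of counting error alone.

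A microRNA hairpin is cut by Drosha and Dicer into a short duplex, whose strands are named 5p and 3p after the arm they come from. One strand is usually kept in an Argonaute protein, where the seed, bases 2 to 8 from its 5′ end, pairs with target mRNAs. miR-143 and miR-145 come from a shared primary transcript and are known from smooth muscle cells and fibroblasts, miR-199 and miR-214 from mesenchymal cells, and miR-126 from endothelial cells, where it lies within the gene of the secreted factor Egfl7. In the ovary such cells form the theca, the stroma and the vessels around the follicle, and oocytes are collected out of follicles that they surround. In these bulk RNA samples, fewer cells of a type and less RNA per cell cannot be told apart.

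The mature sequences show why some members share reads, and are given from RefSeq (GRCm38.p6) with the seed in capitals. Mir199a-1, Mir199a-2 and Mir199b have the same 3p product, called miR-199-3p here, and Mir199a-1 and Mir199a-2 also have the same 5p product.
miR-199a-5p: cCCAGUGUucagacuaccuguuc
miR-199-3p: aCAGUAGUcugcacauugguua
miR-214-3p: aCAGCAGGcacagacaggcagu
miR-126a-3p: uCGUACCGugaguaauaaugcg
No 2 of these 4 products have the same seed. miR-199b-5p differs from miR-199a-5p by C10U within the first 20 bases, counted from the 5′ end with the base of miR-199a-5p first, so that their reads can be told apart.

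Mir143 lies at 18:61649196-61649258 and Mir145a at 18:61647825-61647894, both on the minus strand of GRCm38 and outside other annotated genes of GENCODE M21. Mir199a-2 (1:162217814-162217923) and Mir214 (1:162223368-162223477) overlap exons of the non-coding gene Dnm3os, which runs opposite to Dnm3 and within an intron of it. Mir199a-1 (9:21496495-21496564) lies opposite to an intron of Dnm2, and Mir199b (2:32318460-32318569) opposite to an intron of Dnm1. Mir126a (2:26591357-26591429) lies on the strand of Egfl7 and overlaps an exon of at least 1 of its transcripts.

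Sequencing depth was 764539 reads at 19-24 nt, 1484509 at 24-30 nt and 943811 at 19-30 nt. In that order, 681083, 1424131 and 432623 reads had a usable insert (18 nt or longer), and 247015, 23614 and 24956 lay in sense on microRNA hairpins. A count of 0 allows up to 0.00121%, 0.0127% and 0.0120% of the microRNA reads (3 counts). Reads were 26 nt long in the first pair of libraries and 36 nt in the 19-30 nt library, whose read names give another instrument and flow cell, so that window, read length and run cannot be told apart. MicroRNAs known from germ cells also differed in level: they took 0.460%, 0.0635% and 2.83% of microRNA reads in the 19-24, 24-30 and 19-30 nt libraries. A read that matched several places was divided evenly among them, which gives counts that need not be whole.

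The first question was how much of the microRNA in each library the 7 hairpins made up. Together they had 8809 reads in the 19-24 nt library, which is 3.57% of its microRNA reads (Wilson interval 3.49 to 3.64). In the 24-30 nt library they had 111 reads, or 0.470% (0.391 to 0.566). The 19-30 nt library held 224, or 0.898% (0.788 to 1.02). Their share was 3.97-fold higher in the 19-24 than in the 19-30 nt library (3.48 to 4.56) and 7.59-fold higher than in the 24-30 nt library (6.29 to 9.23). Without Mir143, which gave 58.6% of the members' reads in the 19-24 nt library, these ratios were 3.72 (3.05 to 4.59) and 6.84 (5.19 to 9.20). A further count took each distinct start sequence once: the first 20 bases, or the whole insert at 18 or 19 nt. By distinct start sequences the ratios of all 7 members were 1.34 (0.752 to 2.53) and 1.62 (0.865 to 3.24), with intervals that held 1. This count leaves out how many reads each sequence had, so it does not measure abundance.

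**Figure D1:**
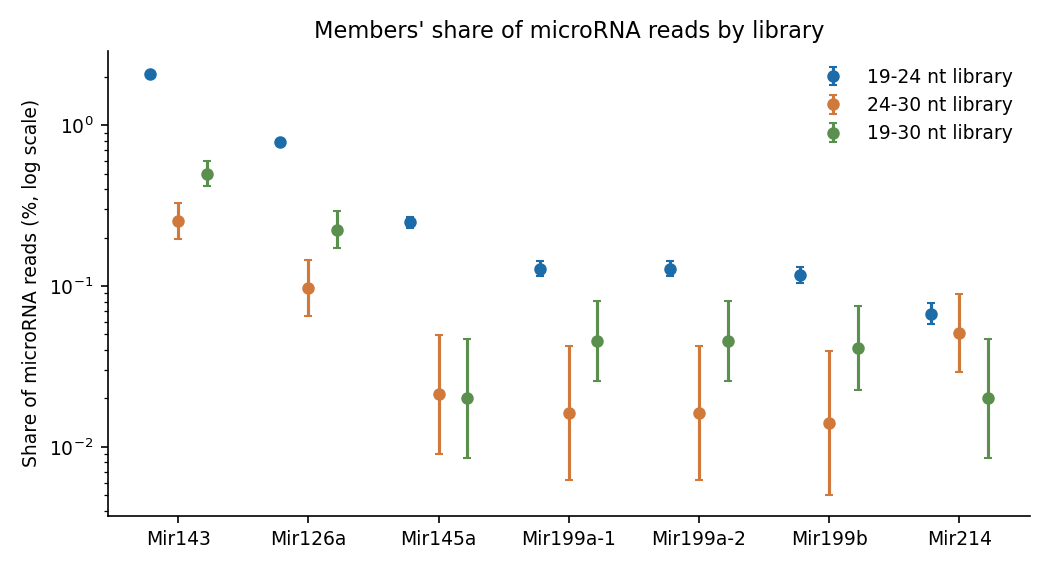
Share of each hairpin in the microRNA reads of the 19-24, 24-30 and 19-30 nt libraries, on a log scale, with 1 point per library and 95% Wilson intervals of counting error. Mir143 and Mir126a had the highest shares among the 7 in each library, and Mir214 was the member whose 19-24 and 24-30 nt values lay closest.

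All 7 hairpins had a higher share in the 19-24 than in the 19-30 nt library, each by at least 2-fold and with an interval wholly above 1. Over all 331 hairpins with at least 10 reads in this pair of libraries, 170 (51.4%) had a higher share, 130 (39.3%) were at least 2-fold higher and 110 (33.2%) had such an interval. The median ratio was 3.35 over the members and 1.06 over the 331 hairpins. Counted by distinct start sequences, all 7 member intervals held 1, and the ratios ran from 0.860 for Mir214 and 1.00 for Mir126a to 2.58 for Mir145a. Each member has few such sequences and the intervals were wide, for Mir199b 0.170 to 570, so this count cannot decide on single members. When inserts of 19 to 22 nt were counted alone, the interval of Mir214 held 1 (1.52, 0.483 to 7.70) and the other 6 stayed above it. For neither of these counts is the share over all hairpins given. Against the 24-30 nt library 7 of 7 members had a higher share and 6 had an interval above 1. Of 317 hairpins there, 218 (68.8%) had a higher share and 123 (38.8%) such an interval, and the medians were 8.09 over the members and 2.34 over all. Since the 3 Mir199 hairpins share most of their reads, these counts do not rest on 7 separate measurements.

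Between the 24-30 and 19-30 nt libraries, Mir143 (ratio 0.507, 0.367 to 0.696) and Mir126a (0.434, 0.255 to 0.717) had a lower share in the 24-30 nt library. Such an interval below 1 was found in 2 of 7 members and in 106 of 245 hairpins (43.3%). The other 5 members had intervals that held 1, although miR-199-3p, counted undivided, had 0.341 (0.149 to 0.714). Both calls were lost when reads sized at 19 to 22 nt alone were counted: the ratio was then 0.980 (0.664 to 1.42) for Mir143 and 0.903 (0.470 to 1.64) for Mir126a. How many of the 106 hairpins kept their call on these reads is not given.

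**Figure D2:**
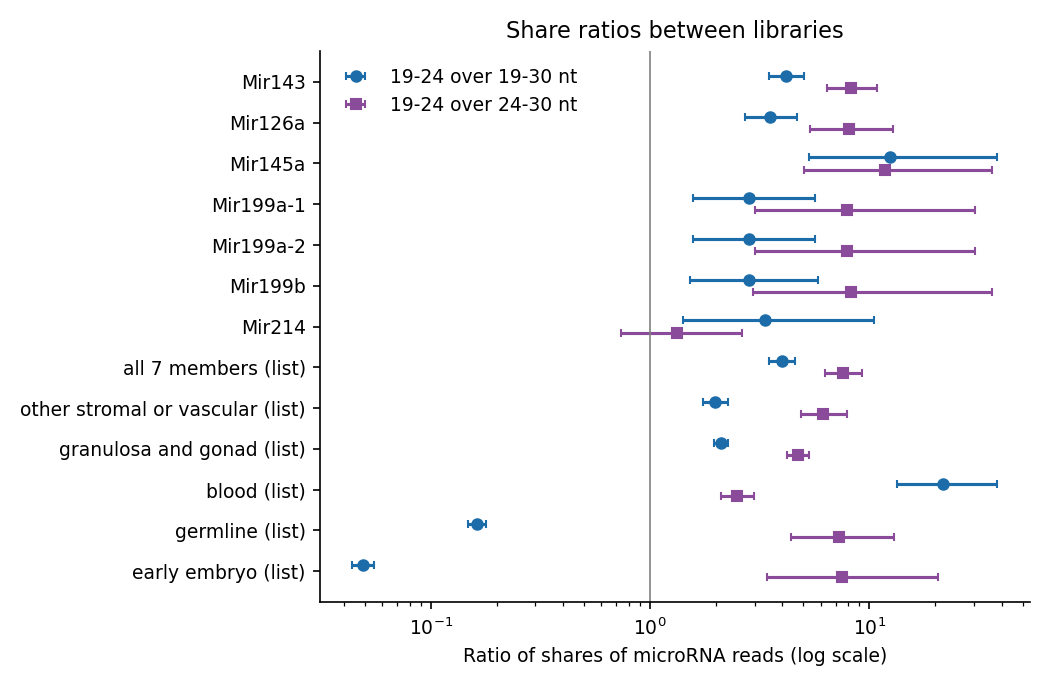
Share of microRNA reads at 19-24 nt divided by that at 19-30 nt (circles) or at 24-30 nt (squares), for each hairpin and for lists of hairpins, on a log scale with 95% counting intervals and a line at 1. The 7 members lie above 1 in both ratios, except that the interval of Mir214 against the 24-30 nt library crosses 1, while the germline and early embryo lists lie below 1 against the 19-30 nt library alone.

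Mir143 was the seventh most abundant hairpin of the 19-24 nt library. It had 5161 reads there, against 60 at 24-30 nt (rank 60) and 125 at 19-30 nt (rank 45). These are 2.09%, 0.254% and 0.501% of microRNA reads, and the 19-24 nt library was 8.22-fold (6.38 to 10.8) above the 24-30 nt library and 4.17-fold (3.49 to 5.02) above the 19-30 nt library. With their 5′ end at a single base lay 5137 of the 5161 reads of miR-143-3p in the 19-24 nt library (99.5%) and 124 of 125 in the 19-30 nt library. The 5p arm had 0 reads in the 19-24 and the 19-30 nt library and 5 of 60 in the 24-30 nt library. All 5 began at the same base and had no linker within 26 nt.

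The last base of miR-143-3p did not follow its hairpin. Among 22 nt reads with the main start, 2197 of 2456 (89.5%, 88.2 to 90.6) carried A22U in the 19-24 nt library, counted from the 5′ end of the product with the hairpin's base first. The same held for 25 of 26 reads (96.2%, 81.1 to 99.3) in the 24-30 nt library and 69 of 76 (90.8%, 82.2 to 95.5) in the 19-30 nt library. The hairpin's own base stood there in 209, 0 and 5 reads. Base 21 matched the hairpin in 1478, 11 and 76 of these reads, so that many reads of both 26 nt libraries differed at more than the last base. Over 100 other products with at least 50 reads of 22 nt in the 19-24 nt library, the median share with a matching base 21 was 59.3%, against 60.2% for miR-143-3p. In the 24-30 nt library the median was 96.7% over 5 such products, against 42.3% of 26 reads for miR-143-3p. In the 19-30 nt library it was 99.5% over 27 products, against 100%. Among the reads with a matching base 21, U followed in 1336 of 1478 (90.4%, 88.8 to 91.8), 10 of 11 and 69 of 76. For this share, the median over 55 other products of the 19-24 nt library was 5.43%, and 4 of them were above miR-143-3p. Each had at least 50 reads of 22 nt and a base other than U at that place. In the 19-30 nt library it was 1.07% over 12 such products, with 0 above. Over all 22 nt reads, whatever their base 21, 53 hairpins of the 19-24 nt library met these limits, Mir143 included. Their median share of U was 6.60%, and 2 hairpins had a higher share than Mir143. Over all 22 nt reads of the 19-30 nt library the median was 2.35% over 16 hairpins, with 0 above Mir143. By contrast 43 of the 52 Mir126a reads of at least 20 nt and 26 of the 33 Mir199 reads in the 19-30 nt library lay on the hairpin over their whole length, against 42 of 124 for Mir143.

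Mir145a, the cluster partner of Mir143, had 614 reads in the 19-24 nt library and 5 in each of the others. The share of microRNA reads was 0.249% (0.230 to 0.269) at 19-24 nt, 0.0212% at 24-30 nt and 0.0200% at 19-30 nt. The ratios of 12.4 to the 19-30 nt library (5.29 to 38.3) and 11.7 to the 24-30 nt library (5.00 to 36.3) were the highest among the members, but rest on 5 reads each. The first of these intervals lies just above that of Mir143 (3.49 to 5.02), and the second overlaps it (6.38 to 10.8). Counting inserts of 19 to 22 nt alone, Mir145a had a ratio to the 24-30 nt library of 1.97 (0.659 to 9.65), an interval that holds 1. This is under the ratios of Mir143 (4.35), Mir126a (3.86) and the Mir199 hairpins (3.22 to 3.69). miR-145a-5p made up 549 of the 614 reads (89.4%, 86.7 to 91.6) and the 3p strand 65. No linker was found in 84.3% of the miR-145a-5p reads of the 19-24 nt library, and all 3 reads of the 19-30 nt library were 23 nt long.

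**Figure D3:**
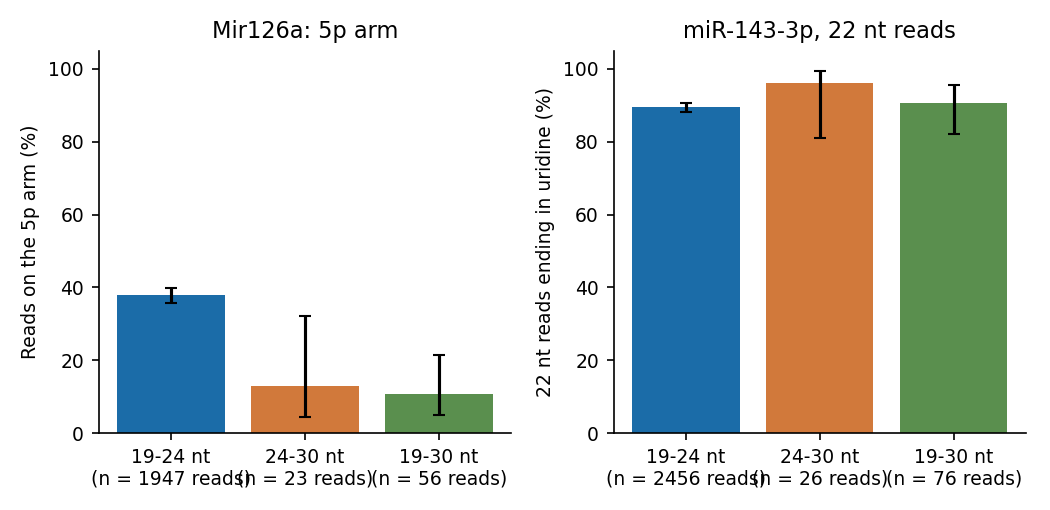
Left, share of Mir126a reads on the 5p arm; right, share of 22 nt miR-143-3p reads that end in uridine, in each library, with 95% Wilson intervals and the number of reads. The arm share is 37.8% in the 19-24 nt library and under 14% in the others, while the share ending in uridine is near 90% or above in all 3.

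Mir126a, the endothelial member, had 1947 reads at 19-24 nt, 23 at 24-30 nt and 56 at 19-30 nt. Its share of 0.788% (0.754 to 0.824) in the 19-24 nt library was 8.09-fold (5.38 to 12.8) above the 24-30 nt library and 3.51-fold (2.69 to 4.67) above the 19-30 nt library. Both arms were sequenced. The 5p strand took 736 of 1947 reads (37.8%, 35.7 to 40.0) at 19-24 nt, 3 of 23 (13.0%, 4.54 to 32.1) at 24-30 nt and 6 of 56 (10.7%, 5.00 to 21.5) at 19-30 nt. The first and the last of these intervals do not overlap. Of 104 hairpins with at least 20 reads in both the 19-24 and the 19-30 nt library, 2 had a larger difference in arm use than the 27.1 percentage points of Mir126a, and the median was 0.391. Against the 19-30 nt library the ratio was 12.4 (5.67 to 33.9) for miR-126a-5p and 2.45 (1.84 to 3.32) for miR-126a-3p. Of the 736 miR-126a-5p reads, 65.6% were 21 nt long.

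Several members began at more than 1 base, which moves the seed. The first 20 bases of the main forms of miR-126a-3p, miR-199-3p and miR-214-3p, those with at least 5% of the product's reads, are given with the seed of each form in capitals.
miR-126a-3p, annotated start: uCGUACCGugaguaauaaug
miR-126a-3p, 1 nt downstream: cGUACCGUgaguaauaaugc
miR-199-3p, 1 nt upstream: uACAGUAGucugcacauugg
miR-199-3p, annotated start: aCAGUAGUcugcacauuggu
miR-199-3p, 1 nt downstream: cAGUAGUCugcacauugguu
miR-214-3p, 1 nt upstream: uACAGCAGgcacagacaggc
miR-214-3p, annotated start: aCAGCAGGcacagacaggca
The upstream forms begin with U and the annotated forms of miR-199-3p and miR-214-3p with A. In the 19-24 nt library miR-126a-3p began at the annotated base in 873 of 1211 reads (72.1%) and 1 nt downstream in 321 (26.5%). The 24-30 nt library had 15 and 5 such reads of 20, and the 19-30 nt library 40 and 8 of 50. The counting intervals of both shares overlap among the 3 libraries. miR-145a-3p also had 3 starts above 5%, next to each other, with 46, 13 and 5 of its 65 reads in the 19-24 nt library.

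miR-199-3p began 1 nt upstream in 175 of 810 reads of the 19-24 nt library (21.6%), at the annotated base in 542 (66.9%) and 1 nt downstream in 87 (10.7%). The 24-30 nt library had 2, 8 and 0 of 10 reads in that order, and the 19-30 nt library 5, 26 and 0 of 31. miR-214-3p was split almost evenly, with 78 reads upstream and 86 at the annotated start among 165 in the 19-24 nt library. Of its 12 reads in the 24-30 nt library 10 were upstream, and of its 5 in the 19-30 nt library 2. Over the 157 hairpins with at least 100 reads in the 19-24 nt library, the median share of the main start was 99.2%. Mir214, with 52.1%, was above 1.27% of them, the Mir199 hairpins above 5.10% and Mir126a above 8.28%, whereas Mir143 was above 64.3%.

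**Figure D4:**
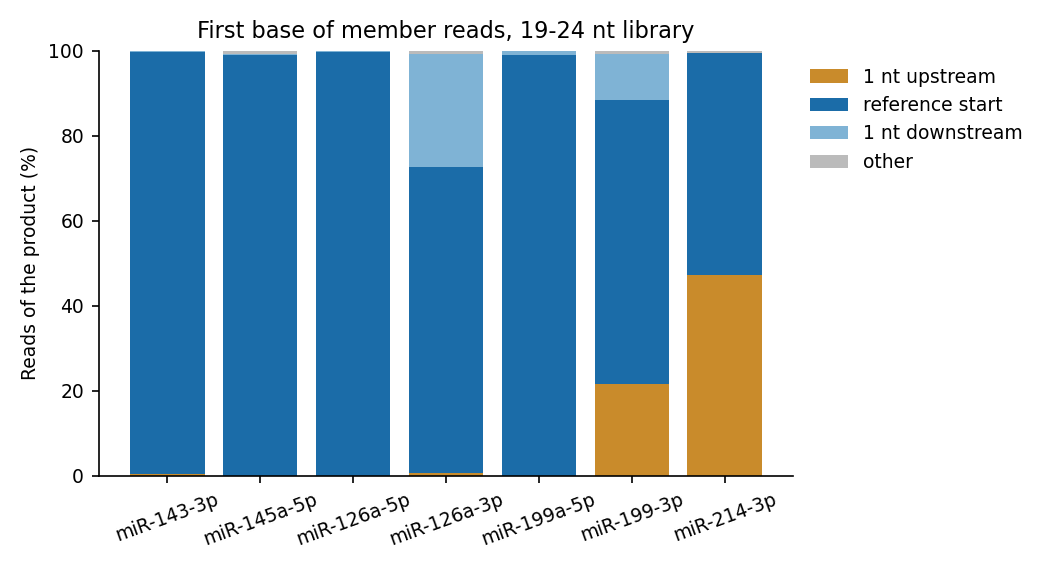
Share of reads of each product by the position of the first base, in the 19-24 nt library. The reference start is the RefSeq start, or the most frequent one for miR-143-3p, miR-145a-5p and miR-126a-5p; miR-126a-3p, miR-199-3p and miR-214-3p are spread over 2 or 3 starts, and each other product shown has nearly all reads at 1.

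The 3 Mir199 hairpins gave 810 reads of miR-199-3p, 93 of miR-199a-5p and 18 of miR-199b-5p in the 19-24 nt library. The 24-30 nt library had 10, 1 and 0 reads of these products and the 19-30 nt library 31, 2 and 0. For miR-199b-5p the 18 reads are a share of 0.00729%, which lies under what a count of 0 allows in the other libraries, so no difference could be detected there. miR-199-3p was 7.74-fold higher (4.19 to 16.2) in the 19-24 than in the 24-30 nt library and 2.64-fold higher (1.85 to 3.91) than in the 19-30 nt library. Divided among the hairpins, Mir199a-1 and Mir199a-2 had 316.5 reads each and Mir199b 288 in the 19-24 nt library. The ratio of each to the 19-30 nt library was 2.82, and the widest of the intervals was 1.52 to 5.85.

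Mir214, which shares the Dnm3os transcript with Mir199a-2, had 166 reads at 19-24 nt, 12 at 24-30 nt and 5 at 19-30 nt. Its share of 0.0672% in the 19-24 nt library was 3.35-fold (1.41 to 10.5) above the 19-30 nt library. Against the 0.0508% of the 24-30 nt library the ratio was 1.32 with an interval of 0.737 to 2.61, so that no difference was detectable at this depth. For Mir199a-2, whose reads are mostly shared with the other Mir199 hairpins, the ratio was 7.89, with an interval that lay above that of Mir214 and reached 30.2. No linker was found in any of the 12 Mir214 reads at 24-30 nt, nor in 128 of its 166 reads at 19-24 nt. With no Mir214 insert sized at 24-30 nt, its contrast with Mir199a-2 could not be checked on inserts of 19 to 22 nt. Mir214 had a single read on its 5p arm, in the 19-24 nt library, and all its other reads were on the 3p arm. Outside the hairpins, Dnm3os exons had 0 sense reads in each library and Egfl7 exons 1, in the 19-24 nt library.

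In order of share in the 19-24 nt library, the members ran Mir143 (2.09%), Mir126a (0.788%), Mir145a (0.249%), Mir199a-1 and Mir199a-2 (0.128% each), Mir199b (0.117%) and Mir214 (0.0672%). Neighbouring intervals were apart except among the Mir199 hairpins. In the 19-30 nt library Mir143 and Mir126a stood apart from each other and from the rest, and the intervals of the other 5 overlapped.

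The members were short among microRNAs. In the 19-24 nt library no linker was found in 27.9% of their reads (27.0 to 28.9), against 51.8% of all microRNA reads (51.6 to 52.0). A read without a linker there is one of 23 nt or longer or one whose linker was misread. The share was 20.3% for Mir143, 28.0% for Mir126a and 30.2% for Mir199a-2, but 76.5% for Mir145a and 77.1% for Mir214. Its median over the 157 hairpins with at least 100 reads there was 52.6%. Within the 19-30 nt library, where inserts up to 30 nt can be sized, 23 nt reads made up 11.6% of the members' reads and 32.4% of all microRNA reads, and the mean lengths were 21.7 and 22.4 nt. When reads sized at 19 to 22 nt alone were compared in every library, the members' share was 5.34%, 1.32% and 1.37% in the 19-24, 24-30 and 19-30 nt libraries. The ratio to the 24-30 nt library was then 4.03 (3.16 to 5.23), and to the 19-30 nt library it was 3.90 (3.38 to 4.53).

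**Figure D5:**
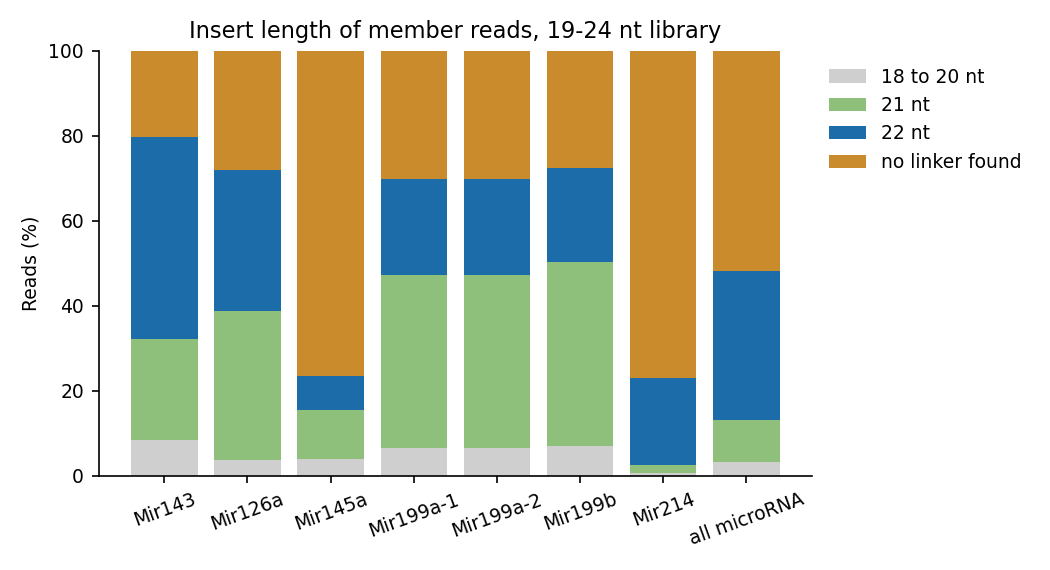
Insert lengths of member reads and of all microRNA reads in the 19-24 nt library, as stacked shares. Mir145a and Mir214 have the largest part without a linker, over 76%, and the Mir199 hairpins the largest part at 21 nt.

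Other lists were measured in the same way. A list of 16 further stromal or vascular hairpins, among them Mir10b and Mir125b-2, gave 4447, 69 and 226.7 reads in the 19-24, 24-30 and 19-30 nt libraries. Their share was 1.98-fold higher (1.73 to 2.28) in the 19-24 than in the 19-30 nt library, with 7 of the 13 hairpins of at least 10 reads above 1 by interval and 2 below. Mir10b had a ratio of 15.1 (8.40 to 30.2) and Mir125b-2 3.62 (2.29 to 6.09). The granulosa and gonad list had 2.10 (1.95 to 2.27), with Mir503 at 16.5 and Mir21a at 0.835. The blood list, led by the red cell microRNA Mir451a (3108 and 9 reads), had 21.7 (13.4 to 38.1). The germline list had 0.163 (0.148 to 0.179) and the early embryo list 0.0491 (0.0439 to 0.0549). Against the 24-30 nt library the germline and early embryo lists had 7.24 (4.37 to 13.0) and 7.47 (3.41 to 20.5), whose intervals overlap that of the 7 members (6.29 to 9.23). So does that of the further stromal or vascular list, with 6.16 (4.86 to 7.93). The granulosa and gonad list had 4.71 (4.20 to 5.30) and the blood list 2.49 (2.09 to 2.99), with intervals wholly below that of the members.

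Per read of the germline list, the members had 7.76 reads (7.29 to 8.26) at 19-24 nt, 7.40 (4.30 to 13.7) at 24-30 nt and 0.317 (0.272 to 0.369) at 19-30 nt. Mir547 gave 718 of the 1136 germline reads of the 19-24 nt library and 3 of 706 in the 19-30 nt library. Without it, a choice made after its values were seen, the members had 21.1, 11.1 and 0.319 reads per germline read. Hairpins known from liver and brain, which stand for tissues not expected here, had 37, 1 and 37 reads, or 0.0150%, 0.00423% and 0.148% of microRNA reads. Mir9-3 of this list had 10.3 reads (0.0414%) in the 19-30 nt library. The members had 0.0200% (Mir145a and Mir214), 0.0414% (Mir199b), 0.0454% (Mir199a-1 and Mir199a-2), 0.224% (Mir126a) and 0.501% (Mir143) there. Which cells the members' reads came from was not tested.

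Of the 185 hairpins with at least 100 reads, members included, the others nearest to the members' summed profile over the 3 libraries were Mir379, Mir29a, Mir125b-2, Mir376a and Mir382. Nearness is the distance between the log2 ratios of the 19-24 and of the 24-30 nt library to the 19-30 nt library, with 0.5 reads added, and ran from 0.126 to 0.382. Among the members it was 0.0803 for Mir143, which gives most of the summed profile and so had to lie near it, and 0.317 for Mir126a. The other members lay farther off than these 5 hairpins, Mir199a-1 and Mir199a-2 at 0.705, Mir199b at 0.743, Mir145a at 1.82 and Mir214 at 2.23. These 5 hairpins were picked as the nearest of all others, so their being nearer than most members follows in part from the choice. Mir379 had 969, 12 and 26 reads and Mir29a 5912, 61 and 134 in the 19-24, 24-30 and 19-30 nt libraries. The other 3 rest on fewer reads in the 24-30 and 19-30 nt libraries: Mir125b-2 on 7.5 and 18.5, Mir382 on 2 and 6, and Mir376a on 1 and 3. Among the members, Mir145a rests there on 5 and 5 reads and Mir214 on 12 and 5.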

How the data were processed

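The deposited files hold other values than a table: unaligned reads with base qualities, still carrying the 3′ linker. Per the labels' protocols, gel-cut RNA was ligated to Solexa adapters and amplified by RT-PCR. No aligner or build of the authors is stated in the labels. The first 14 linker bases were read off 36 nt reads that begin with a 22 nt mature microRNA. The linker was searched with an overlap of at least 4 (26 nt reads) or 6 called bases (36 nt reads) and up to 20% mismatches, so that inserts could be sized up to 22 and 30 nt. Reads were set aside where 1 of the first 18 bases was uncalled or 15 of them were the same, as were 312443 reads of 36 nt in which no linker was found. The first 20 bases (the whole insert at 18 or 19 nt) had to match 1 of 141767 GENCODE M21 transcripts (GRCm38), and reads with over 1000 places were set aside. A read counts as microRNA where it lies in sense on a microRNA hairpin. Python 3.11.15, numpy 2.4.6, pandas 2.3.3, scipy 1.17.1 and numba 0.67.0 were used. Linker trimming, the counting of unique first 20 bases on hairpins and the ratio intervals were tested on simulated inserts of 20 to 22 nt. Matching to all transcripts, the division of reads among places and the arm calls were not part of that test.

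With 1 library in each window no test could be made. Shares have Wilson and ratios conditional binomial (Clopper-Pearson) intervals, for counting error only, since reads carry no molecular identifiers. A read was given to the 5p or 3p arm by the side of the hairpin's midpoint on which it lay. The members and lists were chosen with earlier results of these data known. All members are named, with the 5 other hairpins nearest in profile and the 2 hairpins with most reads of a comparison list where they bear on a result. Alternatives varied the match length, mismatches, the treatment of multiple matches, the length range, the denominator and the list.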

Additional observations from a re-analysis of the deposited data

Results flagged for a closer look

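In the 19-30 nt library, 47 reads in which no linker was found began on a member hairpin, above the 3 counts that a count of 0 allows; such reads had been set aside. Mir143 had 30 of them, Mir126a 8, and Mir145a and Mir214 2 each. They made up 0.492% of the 9544 microRNA reads of this kind, against 0.898% where a linker was found. In a check added after the data were seen, at least 7 of 12 linker bases matched at a place 20 to 24 bases into the read in 45 of the 47 (95.7%, 85.8 to 98.8). The same held for 90.4% of 10122 such reads that begin on any microRNA hairpin, each read counted once and not divided among its places, and for 43.7% of the other 302321. The inserts were not sized. With all of them kept, the 19-30 nt library had 271 member reads, or 0.785% of 34500, and the ratio of the 19-24 nt library to it was 4.54 (4.02 to 5.14). For Mir143 it was then 4.65 (3.96 to 5.49), for Mir126a 4.25 (3.31 to 5.54), for Mir145a 12.3 (5.91 to 30.6) and for Mir214 3.31 (1.57 to 8.37).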

How the results depend on the processing

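The share ratios of the summed members in the 19-24 nt library stayed above 1 under all 11 alternatives. Of these, 10 were planned and 1 (keeping 19-30 nt reads without a found linker) was added after the data were seen. The added one could not change the ratio to the 24-30 nt library, which stayed at 7.59. Counted by distinct start sequences the ratios were 1.34 to the 19-30 and 1.62 to the 24-30 nt library, with intervals that held 1. With reads of 19 to 22 nt alone the ratio to the 24-30 nt library was 4.03. Scaled to matched reads (reads per 1000000) the ratios were 17.97 and 86.6, from 27903 at 19-24 nt, 322 at 24-30 nt and 1553 at 19-30 nt. Scaled likewise to usable inserts they were 24.98 and 165.9, from 12934, 77.9 and 518. MicroRNA made up 78.2%, 6.85% and 17.3% of matched reads in these libraries. With the first 18 bases matched the share was 3.26% in the 19-24 nt library. With 1 mismatch allowed on hairpins alone it was 3.20%, 0.367% and 0.705% in the 19-24, 24-30 and 19-30 nt libraries, with sized reads alone 5.34%, 1.32% and 1.37%, and with the reads without a found linker 0.785% in the 19-30 nt library. By distinct start sequences, a count without read numbers, the ratio of Mir143 between the 24-30 and 19-30 nt library turned to 1.02. That of Mir214 between the 19-24 and 19-30 nt library turned to 0.860. Under this count their intervals ran from 0.137 to 7.64 and from 0.123 to 9.50, and the cause was not tested. Of 200 ratios of single members under the alternatives, 12 lay on the other side of 1 from the value reported, these 2 and 10 whose reported interval held 1. By counting interval, 148 lay within that of the value reported. Among these are the ratios between the 19-24 and 24-30 nt libraries with 19-30 nt reads added, which could not change. No paired analysis was possible because there is 1 library per window and no test. Depth limits the 24-30 and 19-30 nt values most, where Mir145a, Mir214 and each of the Mir199 hairpins rest on 3.33 to 12 reads.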

Other observations

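Antisense to the member hairpins, 1 read was counted in the 19-24 nt library and 0 in the 24-30 and the 19-30 nt library.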
